A study of Homo sapiens with 30 samples.

Results

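The 7 genes described here move protons or bicarbonate across cell membranes or respond to acid outside the cell. They were chosen, with earlier results of these data known, as the SLC4 family transporters SLC4A2, SLC4A4, SLC4A7 and SLC4A11, the receptor GPR132, the ion channel ASIC1 and the proton channel HVCN1. All 7 were found, by symbol, among the 38122 genes of the deposited table. Bulk RNA sequencing had been run on 3 human cancer cell lines, namely FaDu, from a squamous tumour of the hypopharynx, HCT116, from a tumour of the colon, and SiHa, from a squamous tumour of the cervix. One set of cultures of each line had lived in medium of pH 6.5 for 1 month or longer, and the other was kept at pH 7.4. Each of the 6 groups had 5 libraries. All cultures shared the same medium, with 10 mM glucose, 2 mM glutamine, 10% serum, 25 mM HEPES and 25 mM PIPES, at 37 °C and 5% CO2. Each line is 1 cell line grown alone in culture, without other cell types of a tumour. Whether libraries that share a group stem from separate cultures is not said in the labels, so the p-values measure only the spread between these libraries, which may be technical.

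A cell that makes acid keeps its inside near neutral by exporting protons and by taking up bicarbonate, which binds them. Sodium-coupled carriers of the SLC4 family bring bicarbonate in, whereas the anion exchangers of the same family send it out in return for chloride and so acidify the cell. Outside the cell, acid opens acid-sensing ion channels and acts on a small group of G protein-coupled receptors, and a voltage-gated proton channel lets protons leave when the cell is acid inside and depolarised. Tumours are often acid in their interstitial space, and these proteins are studied there for that reason. None of the 7 genes encodes a sodium-proton exchanger. That family, SLC9, is described after them.

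Libraries held 21.02 to 55.7 M reads. Values are the authors' normalised counts, that is, reads divided by a size factor of the library, and 3 reads, taken here as the detection limit, equal 1.90 to 5.01 normalised counts in a library. The limit takes in counting error only. Of the 30 libraries, 9 were kept apart because their genes departed from the pattern of their label or group, a choice made after the data had been seen. In FaDu pH 7.4 replicates 2 to 5, the median gene restricted to HCT116 stood at 29.9% to 80.1% of its level in HCT116. In HCT116 pH 6.5 replicates 5, 6 and 7, the median gene restricted to SiHa stood at 37.4%, 101% and 104% of its level in SiHa. SiHa pH 7.4 replicates 6 and 7 held 2817 to 2863 normalised counts of VIM, against 2.04 to 165 in the other SiHa pH 7.4 libraries. In each of the 21 remaining libraries the median over the genes restricted to another line was at or under 0.0737% of its level there, which the choice of these genes as nearly absent from the other lines largely set. The groups compared therefore held 5 FaDu libraries at pH 6.5 and 1 at pH 7.4, 2 HCT116 libraries at pH 6.5 and 5 at pH 7.4, and 5 SiHa libraries at pH 6.5 and 3 at pH 7.4. With 1 FaDu library at pH 7.4, the FaDu test assumes that it would vary as the pH 6.5 libraries did.

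The lines were also set against tissue markers. FaDu held 225800 to 392676 normalised counts of the squamous keratin KRT5, while SiHa, though labelled as a cervix line of squamous origin, held 13.7 to 87.6. In HCT116 the colon factor CDX1 was at 0 in all 7 libraries, and the colon keratin KRT20 stood at 917 to 990 at pH 6.5 and 176 to 358 at pH 7.4. In SiHa the summed level of 8 squamous markers was 21642 to 85048 at pH 6.5 and 65478 to 72812 at pH 7.4, and that of 8 colon epithelial markers was 31297 to 97633 at pH 6.5 and 141106 to 176908 at pH 7.4. The colon epithelial sum was 70417 to 118245 at pH 6.5 and 95979 to 169749 at pH 7.4 in HCT116. In FaDu it was 110484 to 148982 at pH 6.5 and 129655 at pH 7.4, so this sum did not set the lines apart. Its list includes EPCAM, KRT8 and KRT18. In HCT116 KRT5 stood at 721 to 897 at pH 6.5 and 8.60 to 41.0 at pH 7.4, and the summed level of 4 endothelial markers in FaDu was 391 to 2396 at pH 6.5 and 270 at pH 7.4. PTPRC, the defining marker of immune cells, was at most 9.94 in any of the 21 libraries. The summed level of 8 immune markers was 121 to 182 at pH 6.5 and 196 at pH 7.4 in FaDu, 59.3 to 66.4 at pH 6.5 and 79.8 to 220 at pH 7.4 in HCT116, and 841 to 1913 at pH 6.5 and 734 to 1395 at pH 7.4 in SiHa. The part of these differences in the results below was not tested.

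Lower RNA of the anion exchanger SLC4A2 at pH 6.5 was called in FaDu (1.48-fold) and SiHa (1.34-fold), and the change had the same sign in HCT116 without passing the test. The acid-sensing channel ASIC1 and the receptor GPR132 fell at pH 6.5 in SiHa, by 1.59-fold and 5.51-fold, and neither was called in the other lines. The bicarbonate importer SLC4A7 and the family member SLC4A11 passed the test in no line. SLC4A4 was at or under the limit of 3 reads in 10 of the 21 libraries, GPR132 in 5 and HVCN1 in 1, and HVCN1 exceeded 16 reads in none. In bulk RNA, fewer cells that express a gene and less RNA per cell cannot be told apart.

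Each line was tested on its own with limma on log2 of the normalised count plus 1, over the genes whose mean reached 10 in the higher group, and a change was called where its p, adjusted by Benjamini-Hochberg across all of them, lay under 0.05. In FaDu all 7 genes were tested, 1 was called lower and 0 higher, where 3.12% of all tested genes were called lower and 4.24% higher. In HCT116 4 of the 7 were tested and 0 were called in limma, against 20.2% of all tested genes (9.11% higher and 11.1% lower). There 1 of the 4, SLC4A2, had an unadjusted p under 0.05 in limma, as did 6407 of all 18885 tested genes. Both edgeR and DESeq2 also called 0 of the 4. Of the 18885 genes edgeR called 2068 higher and 1848 lower, and DESeq2 2172 and 2142. In SiHa 5 were tested and 3 were called lower, where 16.2% of all tested genes were called lower. No gene of the 7 was called higher in SiHa, by limma, edgeR or DESeq2, where limma called 15% of all genes higher. Of 18555 genes tested there, edgeR called 2912 higher and DESeq2 3136. With the 9 libraries returned to their labelled groups, FaDu gave 1 higher and 2 lower of 6 tested (24% and 22.3% of all genes), HCT116 0 higher and 1 lower of 4 (8.56% and 9.62%) and SiHa 0 higher and 3 lower of 5 (19.7% and 21.1%).

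**Figure D1:**
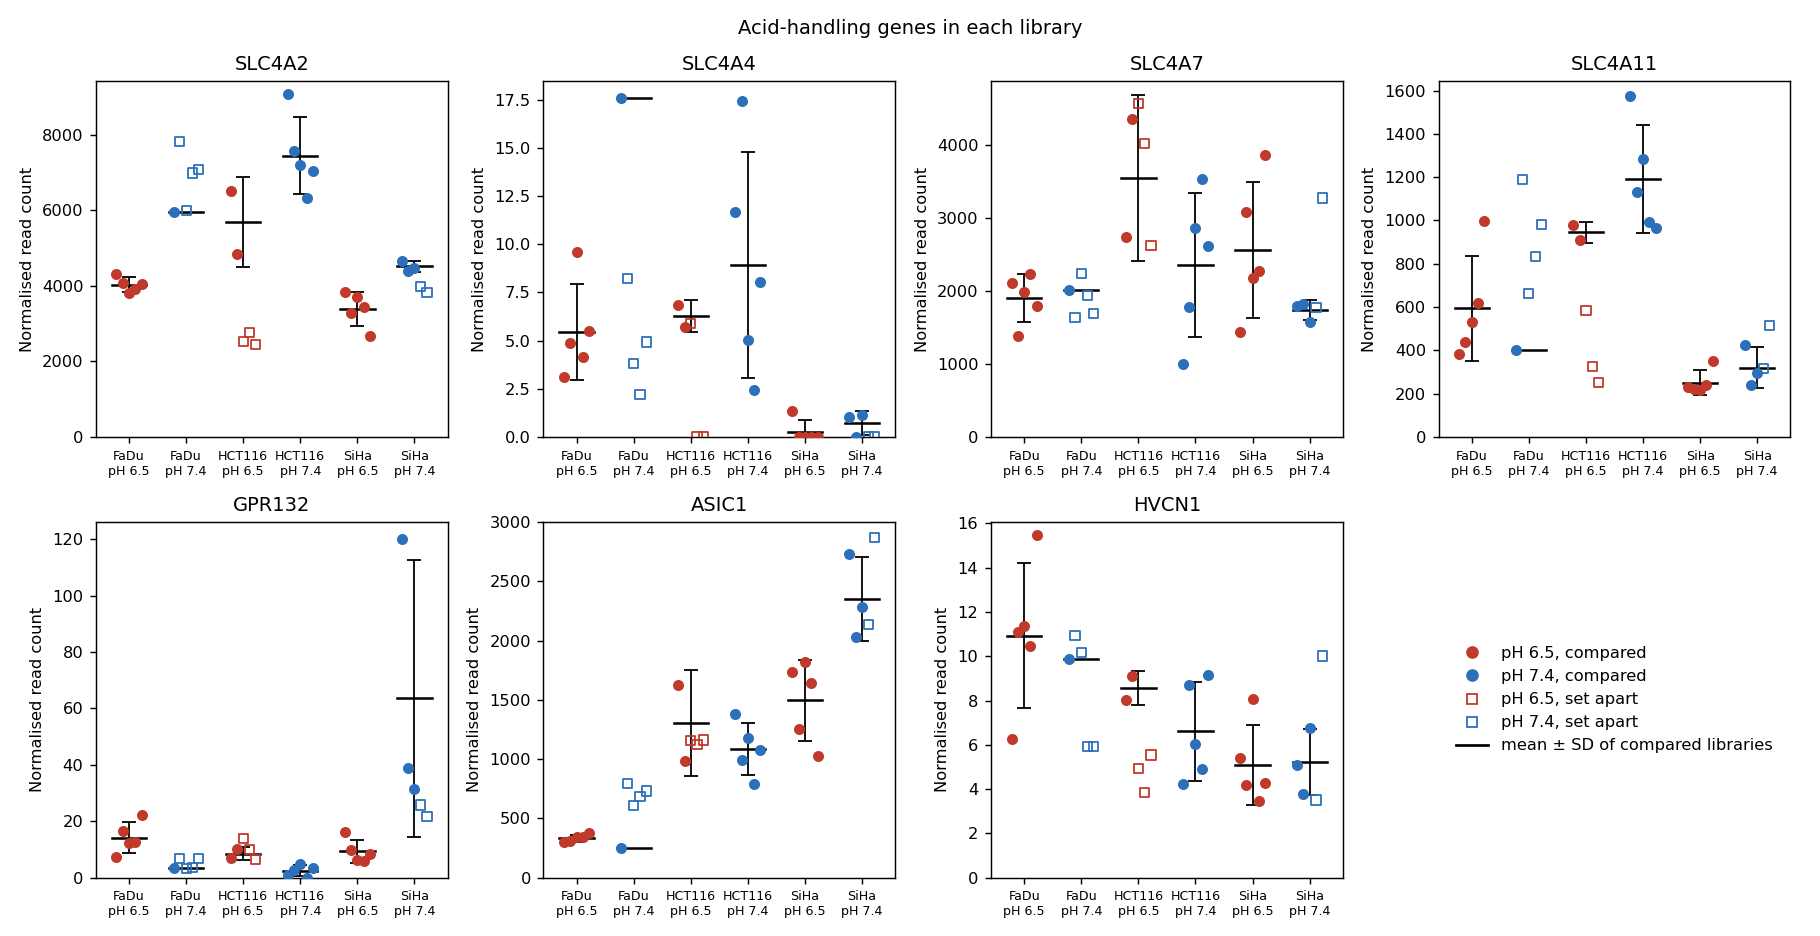
Normalised read counts of the 7 genes (vertical axes, linear, from 0) in each library of the 6 groups. Filled points are the 21 compared libraries, with their mean and SD, and open squares are the 9 libraries kept apart. SLC4A2 lay between 2684 and 3825 in SiHa at pH 6.5, below all 3 compared SiHa libraries at pH 7.4, and the axes of SLC4A4 and HVCN1 end below 20.

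SLC4A2, ASIC1 and GPR132 were the 3 genes called lower in SiHa at pH 6.5, and their promoters are shown for that reason. Each window runs from 250 bases before to 50 bases after a transcript start of RefSeq on GRCh38.p14, and is the first of the windows listed for the gene. SLC4A2 has 4 windows listed, ASIC1 3 and GPR132 1, and matches are given only for the first. Such windows were found for 5 of the 7 genes. Capitals mark matches, on either strand, to the GC box GGGCGG, bound by SP family factors, and to TGACG, the half-site of the cAMP response element. The E-box CACGTG, the CCAAT box CCAAT and the TATA box TATAAA were searched as well and had no match in these 3 windows.
SLC4A2, chr7:151057950-151058249, plus strand: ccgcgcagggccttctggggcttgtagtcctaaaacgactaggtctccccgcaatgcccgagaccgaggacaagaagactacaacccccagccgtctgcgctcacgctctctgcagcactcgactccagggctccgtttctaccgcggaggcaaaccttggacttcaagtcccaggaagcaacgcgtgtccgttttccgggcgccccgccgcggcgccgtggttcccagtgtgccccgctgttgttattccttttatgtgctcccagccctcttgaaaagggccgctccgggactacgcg
ASIC1, chr12:50057920-50058219, plus strand: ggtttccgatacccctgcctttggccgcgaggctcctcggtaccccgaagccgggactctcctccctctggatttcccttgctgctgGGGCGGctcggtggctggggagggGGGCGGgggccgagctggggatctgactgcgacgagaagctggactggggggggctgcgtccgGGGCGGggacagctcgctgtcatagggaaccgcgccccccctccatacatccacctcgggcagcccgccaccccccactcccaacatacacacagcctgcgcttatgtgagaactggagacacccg
GPR132, chr14:105065381-105065680, minus strand: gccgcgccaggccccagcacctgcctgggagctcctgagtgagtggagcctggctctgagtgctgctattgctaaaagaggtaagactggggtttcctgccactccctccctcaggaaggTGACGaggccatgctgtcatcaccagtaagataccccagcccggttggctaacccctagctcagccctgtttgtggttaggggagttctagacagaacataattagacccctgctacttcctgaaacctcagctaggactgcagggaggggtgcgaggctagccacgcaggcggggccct
The ASIC1 window held 3 GC boxes, which 45.0% of all 35116 promoter windows hold at least once. The GPR132 window held 1 TGACG, found in 24.6% of all windows. The SLC4A2 window matched none of the 5 motifs, of which CACGTG occurs in 7.26%, CCAAT in 34.6% and TATAAA in 11.5% of all windows. G and C made up 62.7% of the SLC4A2 window, 68.7% of the ASIC1 window and 59.7% of the GPR132 window.

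SLC4A2 (ENSG00000164889, chromosome 7), also called AE2, exchanges bicarbonate of the cell for chloride from outside. In FaDu it measured 4315, 4085, 3811, 3906 and 4054 normalised counts at pH 6.5, against 5950 in the pH 7.4 library. All 5 pH 6.5 libraries lay close together and under the pH 7.4 value, and the log2 change was -0.56 ± 0.11 (SE), with an adjusted p of 0.0354. In SiHa SLC4A2 measured 3825, 3282, 3692, 3443 and 2684 at pH 6.5, against 4661, 4396 and 4477 at pH 7.4. The groups did not overlap, and the log2 change was -0.42 ± 0.11, with an adjusted p of 0.0162. In HCT116 it measured 6520 and 4852 at pH 6.5, against 9086, 7561, 7208, 6330 and 7034 at pH 7.4. The higher of the 2 pH 6.5 libraries lay inside the pH 7.4 range, and the log2 change of -0.39 ± 0.16 had an adjusted p of 0.1002. The 95% interval in HCT116, -0.74 to -0.05, held the changes of the other two lines, and no difference in change between the lines passed the test. These differences were -0.14 for FaDu minus SiHa (95% interval -0.59 to 0.31, adjusted p = 0.728), 0.03 for HCT116 minus SiHa (-0.35 to 0.41, adjusted p = 0.927) and 0.17 for HCT116 minus FaDu (-0.30 to 0.64, adjusted p = 0.666).

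The SLC4A2 calls in FaDu and SiHa were lost when some single libraries were left out. The FaDu change was no longer called when pH 6.5 replicate 2, 3, 4 or 5 was left out, at adjusted p of 0.0776, 0.107, 0.109 and 0.0787, while its size stayed between -0.59 and -0.54. With 1 FaDu library left out, calls over all genes moved as well, from 38 to 3430 higher and from 28 to 3609 lower. The SiHa change was no longer called without pH 7.4 replicate 1 or 5, at adjusted p of 0.0574 and 0.0556. Over all alternatives the adjusted p ran from 0.000302 to 0.109 in FaDu, from 0.00416 to 0.0574 in SiHa and from 0.0266 to 0.515 in HCT116, each with the same sign throughout. In HCT116 it was called lower with all libraries as labelled (log2 -1.07) and in 1 fit over the 3 lines (-0.39, adjusted p = 0.0452). The HCT116 change was also called with the replicate block (-0.56), which rests on replicates 1 and 3 and is described at the end. On the opposite strand CDK5 overlaps 4.36% of the exon bases of SLC4A2 and AC010973.2 overlaps 9.41%. The strand setting of the counting is not given in the sources used here, so reads of these stretches cannot be told apart.

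SLC4A7 (ENSG00000033867, chromosome 3), or NBCn1, carries sodium and bicarbonate into the cell without moving net charge. In HCT116 it measured 2750 and 4365 normalised counts at pH 6.5, against 1004, 1780, 2862, 3534 and 2624 at pH 7.4. In SiHa the values were 1438, 3082, 2180, 2282 and 3865 at pH 6.5, against 1801, 1832 and 1580 at pH 7.4. The groups overlapped in both lines, and the spread at pH 6.5 in SiHa, 2569 ± 930 (SD, n = 5), was wider than at pH 7.4, 1738 ± 137 (SD, n = 3). The log2 change was 0.68 ± 0.38 in HCT116 (95% interval -0.15 to 1.51, adjusted p = 0.236) and 0.49 ± 0.25 in SiHa (-0.06 to 1.04, adjusted p = 0.158). Without SiHa pH 6.5 replicate 1, the lowest value of its group, the change was 0.68 with an adjusted p of 0.0160, in a range over all alternatives of 0.0160 to 0.363. In HCT116 the change ran from 0.35 to 1.37 over all alternatives. It was called only with the replicate block, which rests on replicates 1 and 3 and is described at the end. In FaDu 2114, 1389, 1987, 2243 and 1792 at pH 6.5 stood beside 2017 at pH 7.4, a log2 change of -0.10 ± 0.24 (adjusted p = 0.819) that turned to 0.01 without pH 6.5 replicate 2.

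SLC4A4 (ENSG00000080493, chromosome 4), or NBCe1, also couples sodium to bicarbonate but moves net charge. It was the gene closest to the detection limit: 5 of the 21 libraries held 0 reads and 10 held 3 reads or fewer, and the highest library held 20 reads. In SiHa all 8 libraries were at or under 3 reads, with 1.35, 0, 0, 0 and 0 normalised counts at pH 6.5 and 1.02, 0 and 1.13 at pH 7.4, so no change could be detected at this depth. In HCT116 the values were 6.87 and 5.70 at pH 6.5, against 11.7, 17.4, 5.03, 2.46 and 8.02 at pH 7.4, with means under the level needed for a test. In FaDu SLC4A4 measured 3.12, 4.86, 9.62, 4.18 and 5.52 at pH 6.5, against 17.6 at pH 7.4, and the log2 change of -1.60 ± 0.58 had an adjusted p of 0.129. The single FaDu pH 7.4 library stood above all 5 at pH 6.5, and without it the gene would not have reached the mean of 10 needed for the test.

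SLC4A11 (ENSG00000088836, chromosome 20) belongs to the family by sequence but is known for carrying protons and water rather than bicarbonate. In FaDu it measured 385, 439, 530, 619 and 997 normalised counts at pH 6.5, against 404 at pH 7.4. In HCT116 it measured 979 and 911 at pH 6.5, against 1575, 1134, 1286, 995 and 966 at pH 7.4. In SiHa it measured 229, 221, 215, 239 and 353 at pH 6.5, against 424, 243 and 294 at pH 7.4. All 3 pairs of groups overlapped. The log2 change was 0.47 ± 0.45 in FaDu (adjusted p = 0.529), -0.31 ± 0.19 in HCT116 (adjusted p = 0.266) and -0.33 ± 0.21 in SiHa (adjusted p = 0.246). Their 95% intervals, -0.58 to 1.52, -0.72 to 0.09 and -0.80 to 0.13, all include 0, most widely in FaDu. With the libraries as labelled the change was -0.45 in FaDu (adjusted p = 0.263, in a range over all alternatives of 0.136 to 0.678) and -1.13 in HCT116 (adjusted p = 0.0583, in a range of 0.0540 to 0.502).

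GPR132 (ENSG00000183484, chromosome 14) is a G protein-coupled receptor grouped by sequence with the proton-sensing receptors, such as GPR4, and best known from immune cells. In SiHa it measured 16.2, 9.79, 6.28, 6.03 and 8.54 normalised counts at pH 6.5, against 120, 38.8 and 31.6 at pH 7.4. GPR132 entered the SiHa test through its mean at pH 7.4 (63.5), since its mean at pH 6.5 (9.36) lay under 10. The highest pH 6.5 library lay under the lowest pH 7.4 library, and pH 7.4 replicate 1 stood far above the other two. The log2 change was -2.46 ± 0.46, with an adjusted p of 0.00286. Without that replicate it was -1.88 with an adjusted p of 0.0127, and the gene was called lower in SiHa under every alternative, at adjusted p of 1.74e-06 to 0.0127.

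In the other lines GPR132 lay higher at pH 6.5 on few reads. In FaDu it measured 7.29, 16.7, 12.3, 12.5 and 22.1 normalised counts at pH 6.5, against 3.30 at pH 7.4, which is 3 reads. In HCT116 the values were 6.87 and 10.3 at pH 6.5, against 1.06, 2.61, 5.03, 0 and 3.44 at pH 7.4, where 4 of the 5 libraries held 3 reads or fewer. The groups did not overlap in either line. The FaDu log2 change of 1.74 ± 0.58 had an adjusted p of 0.105. It was called without pH 6.5 replicate 1 (1.94, adjusted p = 0.0129) and with the libraries as labelled (1.37, adjusted p = 0.00947), in a range over all alternatives of 0.00947 to 0.195. In HCT116 the mean was too low for the test. With no filter on low values the log2 change there was 1.71 ± 0.69 (adjusted p = 0.175), and in 1 fit over the 3 lines it had an adjusted p of 0.0456.

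ASIC1 (ENSG00000110881, chromosome 12) encodes a sodium channel that opens when protons bind outside the cell, and it is known foremost from neurons. In SiHa it measured 1737, 1258, 1816, 1643 and 1026 normalised counts at pH 6.5, against 2733, 2031 and 2282 at pH 7.4. The groups did not overlap, and the log2 change was -0.67 ± 0.18, with an adjusted p of 0.0182. Without pH 7.4 replicate 1 or 5 the adjusted p was 0.0816 and 0.0562, at log2 changes of -0.56 and -0.69, in a range over all alternatives of 0.00384 to 0.0816. In HCT116 ASIC1 measured 1622 and 988 at pH 6.5, against 1383, 996, 1177, 795 and 1075 at pH 7.4. These groups overlapped, and the log2 change of 0.25 ± 0.22 (adjusted p = 0.474) turned to -0.11 without pH 6.5 replicate 1. In FaDu 303, 306, 342, 342 and 374 at pH 6.5 all lay above 249 at pH 7.4, with a log2 change of 0.41 ± 0.18 and an adjusted p of 0.179. With the FaDu libraries as labelled it was called the other way, at -0.78 (adjusted p = 0.0408), in a range over all alternatives of 0.0378 to 0.407.

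HVCN1 (ENSG00000122986, chromosome 12), the voltage-gated proton channel, is best known from phagocytes and sperm. Every compared library held between 3 and 16 reads of it. In FaDu the values were 6.25, 11.1, 11.4, 10.4 and 15.5 normalised counts at pH 6.5, against 9.89 at pH 7.4, with a log2 change of 0.08 ± 0.51 (95% interval -1.10 to 1.27, adjusted p = 0.935). In HCT116 they were 8.01 and 9.13 at pH 6.5, against 4.24, 8.71, 6.04, 4.91 and 9.17 at pH 7.4, and in SiHa 5.39, 4.20, 8.07, 3.45 and 4.27 at pH 6.5, against 5.09, 3.79 and 6.77 at pH 7.4. The groups overlapped in each line, and HCT116 and SiHa were under the level needed for a test. TCTN1, on the opposite strand, overlaps 17.2% of the exon bases of HVCN1 and averaged 967 normalised counts, so reads of HVCN1 at this level cannot be told apart from reads of TCTN1.

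**Figure D2:**
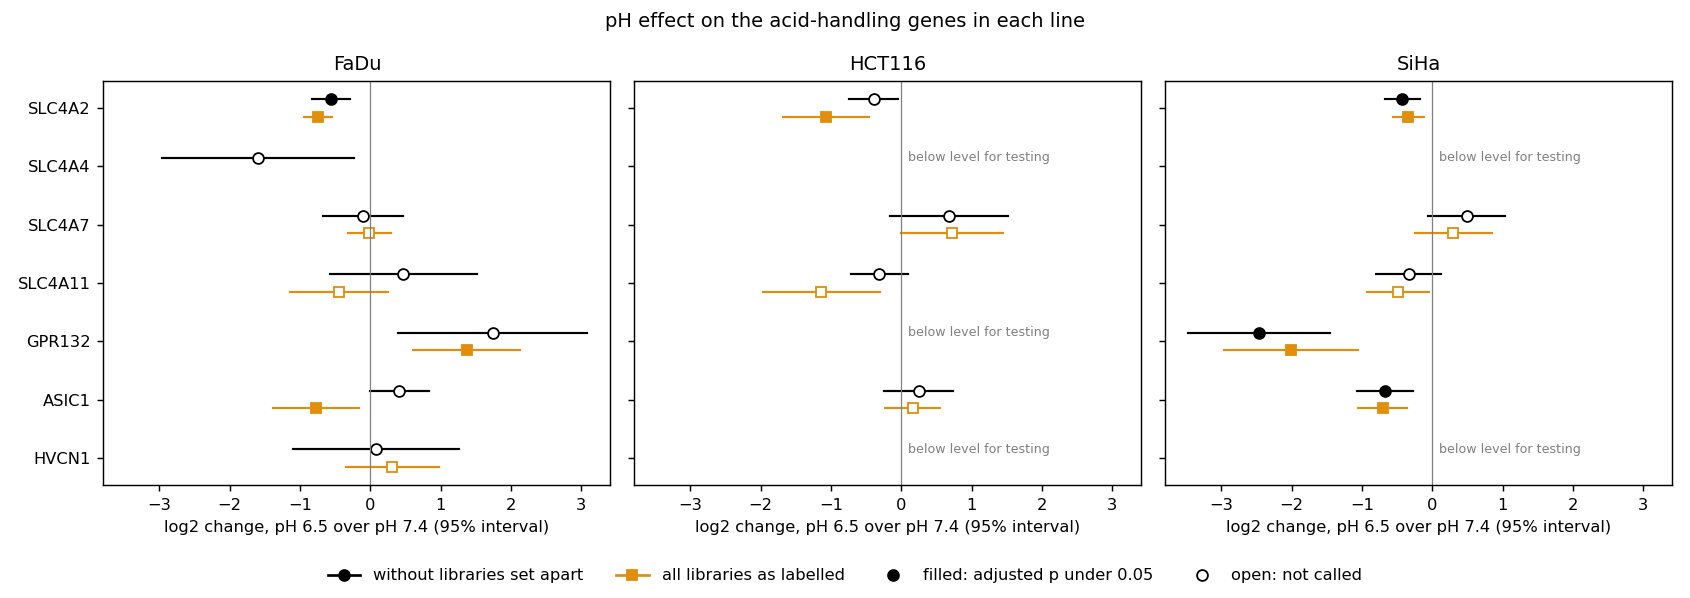
Log2 change at pH 6.5 over pH 7.4 (horizontal axes) with its 95% interval for the 7 genes in FaDu, HCT116 and SiHa, in the 21 compared libraries (circles) and with all libraries as labelled (squares). Filled symbols passed the adjusted p of 0.05. SLC4A2 lies left of 0 in all 3 lines, and ASIC1 in FaDu changes side, from 0.41 in the compared libraries to -0.78 as labelled.

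The pH effect of 2 of the 7 genes differed between the lines. In 1 limma fit over the 21 libraries, the GPR132 change was higher in FaDu than in SiHa by 4.20 ± 0.93 on the log2 scale (adjusted p = 0.00464) and higher in HCT116 than in SiHa by 4.17 ± 0.79 (adjusted p = 0.000667). The ASIC1 change was higher in FaDu than in SiHa by 1.09 ± 0.35 (adjusted p = 0.0391) and higher in HCT116 than in SiHa by 0.92 ± 0.29 (adjusted p = 0.0266). Of all genes tested, 14.9% differed in effect between FaDu and SiHa and 24.5% between HCT116 and SiHa. Between HCT116 and FaDu 0 of the 7 differed, against 15.9% of all genes. At an unadjusted p under 0.05 in limma 0 of the 7 differed as well, where 6646 of 22127 genes did. The 4 differences share their SiHa libraries. Those of GPR132 held without any 1 library that could be left out, at 3.62 and 3.59 without SiHa pH 7.4 replicate 1. The single compared FaDu library at pH 7.4, with 3 reads of GPR132, could not be left out of FaDu minus SiHa. GPR132 passed the filter through FaDu at pH 6.5 (mean 14.2) and SiHa at pH 7.4 (63.5). In HCT116 it averaged 8.57 at pH 6.5 and 2.43 at pH 7.4, under the mean of 10.

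The ASIC1 differences were lost without single libraries. FaDu minus SiHa missed the threshold without any 1 of 6 libraries, FaDu pH 6.5 replicates 3, 4 and 5, SiHa pH 6.5 replicate 4 and SiHa pH 7.4 replicates 1 and 5, at adjusted p of 0.0558 to 0.0883. It also missed with no filter (0.0588) and in edgeR (0.0518), and it was -0.07 with the libraries as labelled, in a range over all alternatives of 0.0268 to 0.892. HCT116 minus SiHa missed it without HCT116 pH 6.5 replicate 1, at 0.56 (adjusted p = 0.252), and without SiHa pH 7.4 replicate 1, at 0.80 (adjusted p = 0.0771), and with the libraries as labelled, at 0.87 (adjusted p = 0.0511), in a range of 0.00885 to 0.252.

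Per kb of exon, which allows genes to be compared, SLC4A2 had the highest mean level of the 7 in every group, from 446 normalised counts per kb in SiHa at pH 6.5 to 981 in HCT116 at pH 7.4. SLC4A7 lay between 181 and 370 in all 6 groups. SLC4A11 lay at 217 at pH 6.5 and 274 at pH 7.4 in HCT116, and at 57.8 and 73.7 in SiHa. ASIC1 had 58.0 at pH 6.5 and 43.4 at pH 7.4 in FaDu, but 260 and 409 in SiHa. GPR132 reached 15.1 in SiHa at pH 7.4 and 0.578 to 3.37 elsewhere. HVCN1 stayed between 1.38 and 2.96, and SLC4A4 between 0.0280 and 1.83. The exon lengths, from 3.69 kb for HVCN1 to 9.62 kb for SLC4A4 and SLC4A7, come from another annotation release than the authors' counting, so these levels are approximate.

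**Figure D3:**
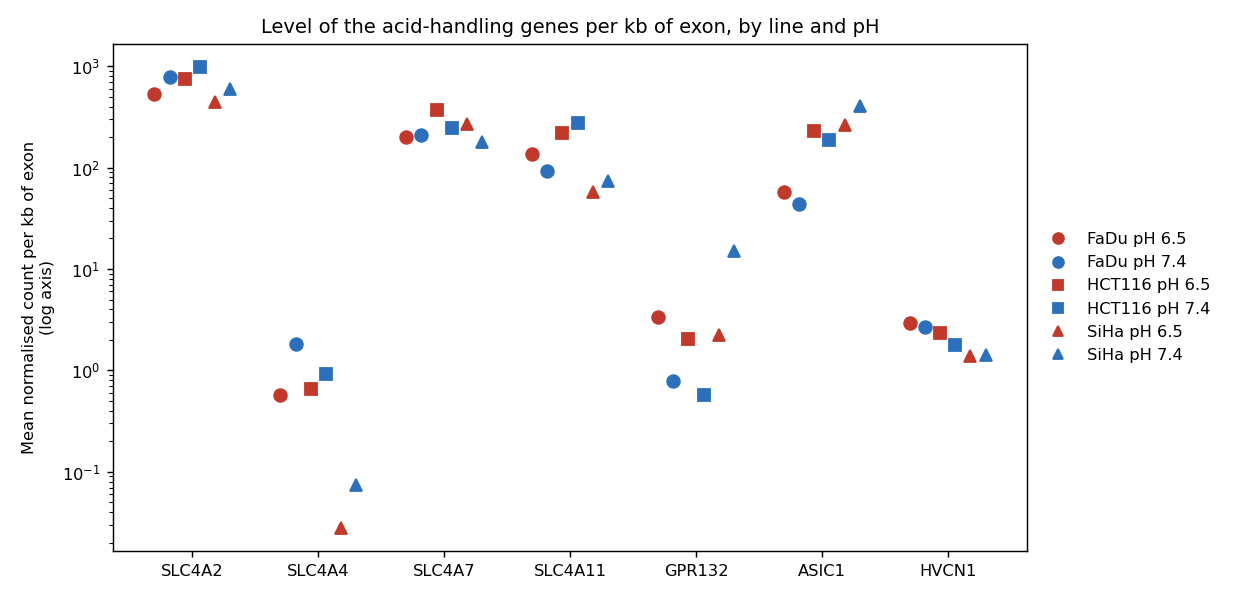
Mean normalised count per kb of exon (vertical axis, logarithmic) of the 7 genes by line and pH, in the compared libraries. SLC4A2 is highest in each group, at 446 to 981, and HVCN1, most GPR132 points and SLC4A4 lie under 4.

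Between any pair of lines, 2 to 5 of the 7 genes differed in level, and 48.8% to 70.2% of all tested genes did. At pH 6.5, 5 of the 7 differed between FaDu and SiHa (70.2% of all tested genes), 3 between HCT116 and SiHa (63.9%) and 4 between HCT116 and FaDu (63%). At pH 7.4, 3 differed between FaDu and SiHa (48.8%), 5 between HCT116 and SiHa (68.5%) and 2 between HCT116 and FaDu (53.6%). SLC4A4 entered these tests only through the single FaDu pH 7.4 library and HVCN1 only through FaDu at pH 6.5, where each was highest, so their part in the counts followed in some measure from the filter.

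By mean, the order of SLC4A2 at pH 6.5 was HCT116 (5686), FaDu (4034) and SiHa (3385). The step from HCT116 to FaDu was 0.48 ± 0.14 on the log2 scale (adjusted p = 0.00430) and that from FaDu to SiHa 0.26 ± 0.10 (adjusted p = 0.0287). The first was lost without HCT116 pH 6.5 replicate 1 (0.27, adjusted p = 0.185), and the second without FaDu pH 6.5 replicate 1 or SiHa pH 6.5 replicate 4 or 7 (adjusted p of 0.0581, 0.0509 and 0.106). With the libraries as labelled the first was -0.19 (adjusted p = 0.378) and the second 0.26 (adjusted p = 0.219), in ranges over all alternatives of 0.00147 to 0.378 and 0.0152 to 0.219. At pH 7.4 the order was the same, with 7444 in HCT116, 5950 in FaDu and 4511 in SiHa. There only HCT116 and SiHa differed, by 0.71 ± 0.12 (adjusted p = 1.95e-05), and neighbours in the order did not pass the test.

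SLC4A11 fell in the order HCT116, FaDu and SiHa at both pH values, with means of 945, 594 and 251 at pH 6.5 and 1191, 404 and 320 at pH 7.4. HCT116 exceeded SiHa by 1.93 ± 0.28 at pH 6.5 (adjusted p = 4.32e-06) and by 1.91 ± 0.25 at pH 7.4 (adjusted p = 6.74e-07). FaDu exceeded SiHa by 1.18 ± 0.21 at pH 6.5 (adjusted p = 4.91e-05) and did not pass the test at pH 7.4 (0.37 ± 0.39, adjusted p = 0.455). HCT116 exceeded FaDu by 1.53 ± 0.37 at pH 7.4 (adjusted p = 0.00153) and by 0.75 ± 0.28 at pH 6.5 (adjusted p = 0.0259). That last difference was lost without FaDu pH 6.5 replicate 1 or 2 or either HCT116 pH 6.5 library, at adjusted p of 0.0552 to 0.132, and was -0.07 with the libraries as labelled (adjusted p = 0.866), in a range over all alternatives of 0.00184 to 0.866. The pH 7.4 difference was 0.62 with the libraries as labelled (adjusted p = 0.155), in a range of 0.000244 to 0.155.

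ASIC1 was lowest in FaDu. At pH 6.5 its means were 333 ± 29.6 in FaDu (SD, n = 5), 1305 ± 448 in HCT116 (n = 2) and 1496 ± 339 in SiHa (n = 5). HCT116 exceeded FaDu by 1.93 ± 0.22 (adjusted p = 1.51e-07), FaDu minus SiHa was -2.13 ± 0.17 (adjusted p = 2.27e-10), and HCT116 minus SiHa did not pass the test (-0.21 ± 0.22, adjusted p = 0.427). At pH 7.4 all 3 pairs differed, with 249 in FaDu, 1085 ± 218 in HCT116 (n = 5) and 2349 ± 356 in SiHa (n = 3), and HCT116 minus SiHa was -1.13 ± 0.19 (adjusted p = 2.53e-05).

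SLC4A7 differed between 1 pair, HCT116 above FaDu at pH 6.5 by 0.88 ± 0.36 (adjusted p = 0.0396), which was lost without HCT116 pH 6.5 replicate 3 (0.55, adjusted p = 0.344) and without FaDu pH 6.5 replicate 2 (0.77, adjusted p = 0.0798) or 5 (0.86, adjusted p = 0.0581), in a range over all alternatives of 0.00529 to 0.344. No difference in GPR132 between the lines passed the test at pH 6.5, where the means were 14.2 ± 5.54 in FaDu (SD, n = 5), 8.57 ± 2.40 in HCT116 (n = 2) and 9.36 ± 4.12 in SiHa (n = 5), with adjusted p of 0.283 to 0.947. At pH 7.4 it was lower in FaDu and in HCT116 than in SiHa (adjusted p = 0.000898 and 2.94e-07), with 3.30 in FaDu, 2.43 ± 1.98 in HCT116 (n = 5) and 63.5 ± 49.2 in SiHa (n = 3). No fold is given for SLC4A4, since no SiHa library held more than 3 reads, and its p-values are left out because 1 library alone brought it over the filter. HVCN1 averaged 10.9 ± 3.28 at pH 6.5 in FaDu (SD, n = 5), the 1 group in which it reached the mean of 10, and its p-values are left out for that reason.

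In the libraries kept apart, several of the 7 genes took other values than in the compared libraries of the same label. FaDu pH 7.4 replicates 2 to 5 held 792, 607, 687 and 731 normalised counts of ASIC1 beside 249 in replicate 1, and 795 to 1383 in HCT116 at pH 7.4. They held 1188, 662, 833 and 980 of SLC4A11 beside 404 in replicate 1, and 966 to 1575 in HCT116 at pH 7.4. HCT116 pH 6.5 replicates 5, 6 and 7 held 2521, 2775 and 2446 of SLC4A2, under both compared HCT116 libraries at pH 6.5 (6520 and 4852), where SiHa at pH 6.5 held 2684 to 3825. SLC4A4 was at 0 in replicates 6 and 7 of these, as in 4 of 5 SiHa libraries at pH 6.5. SiHa pH 7.4 replicates 6 and 7 held 25.7 and 21.7 of GPR132, above all 5 SiHa libraries at pH 6.5 and under the 3 compared libraries at pH 7.4.

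A further 54 genes of pH regulation, in 8 lists chosen with earlier results of these data known, gave the surroundings of the 7. In FaDu 35 were tested, 3 were higher and 2 lower at pH 6.5 (4.24% and 3.12% of all tested genes), with a median log2 change of 0.09 beside -0.01 over all tested genes. In HCT116 2 were higher and 6 lower of 38 tested (9.11% and 11.1% of all), with a median of -0.16 beside -0.01. In SiHa 4 were higher and 6 lower of 31 tested (15% and 16.2% of all), with a median of -0.11 beside -0.01. SLC26A10, GPR65 and ASIC5 were not analysed here.

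The sodium-proton exchangers expel protons in return for sodium. In FaDu 2 were higher and 0 lower of 10 tested in limma, beside 4.24% and 3.12% of all tested genes. In HCT116 2 were higher and 3 lower of 10, beside 9.11% and 11.1%, and in SiHa 2 were higher and 1 lower of 9, beside 15% and 16.2%. SLC9A2, an epithelial exchanger, was lower at pH 6.5 in HCT116, 88.5 ± 24.8 against 298 ± 37.1 (log2 -1.76 ± 0.21, adjusted p = 0.000148), and higher in FaDu, 169 ± 24.9 against 76.9 (1.11 ± 0.25, adjusted p = 0.0437). The HCT116 change of SLC9A2 missed the threshold in 1 limma fit over the 3 lines (adjusted p = 0.0564). It also missed with the replicate block as labelled (adjusted p = 0.0604), in a range over all alternatives of 1.92e-11 to 0.0604. SLC9A5 was higher at pH 6.5 in FaDu, 195 ± 17.9 against 79.1 (1.29 ± 0.20, adjusted p = 0.0198), and in SiHa, 1490 ± 323 against 909 ± 180 (0.70 ± 0.17, adjusted p = 0.0114). With the libraries as labelled, the FaDu changes of SLC9A2 and SLC9A5 were 0.04 and -0.28 (adjusted p = 0.920 and 0.562), in ranges over all alternatives of 0.00456 to 0.920 and 0.000169 to 0.562. SLC9A8, an exchanger of the Golgi, was higher in HCT116 at pH 6.5, 672 ± 5.66 against 463 ± 65.3 (0.55 ± 0.17, adjusted p = 0.0398).

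SLC9A9, an exchanger of endosomes, was lower at pH 6.5 in SiHa and higher in HCT116. In SiHa it measured 8.09, 5.60, 5.38, 1.72 and 0.854 normalised counts at pH 6.5, against 58.0, 64.4 and 58.7 at pH 7.4, a log2 change of -3.76 ± 0.50 with an adjusted p of 0.000487. It entered the SiHa test only through its mean at pH 7.4, since every pH 6.5 value lay under 10. In HCT116 it measured 68.7 and 54.8 at pH 6.5, against 39.2, 21.8, 11.1, 13.5 and 24.1 at pH 7.4, a change of 1.57 ± 0.44 with an adjusted p of 0.0255. The groups did not overlap in either line. HCT116 pH 6.5 replicates 6 and 7, kept apart, held 3.08 and 0.792, within or under the range of SiHa at pH 6.5, and as labelled the HCT116 change was -0.49 (adjusted p = 0.718, in a range over all alternatives of 0.00538 to 0.718). In FaDu SLC9A9 held 22.9 to 53.4 at pH 6.5, around 51.6 at pH 7.4.

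Among the partners of these carriers, AHCYL1, the inositol trisphosphate receptor-binding protein that activates NBCe1 and several other carriers, was higher at pH 6.5 in FaDu, 12057 ± 871 against 6230 (log2 0.95 ± 0.13, adjusted p = 0.0167), and in SiHa, 9657 ± 2000 against 6210 ± 562 (0.62 ± 0.15, adjusted p = 0.0110). Its relative AHCYL2 was lower at pH 6.5 in the same lines, 467 ± 24.4 against 724 in FaDu (-0.63 ± 0.14, adjusted p = 0.0444) and 758 ± 83.0 against 1159 ± 113 in SiHa (-0.61 ± 0.12, adjusted p = 0.00297). The scaffold PDZK1 was higher in SiHa at pH 6.5, 65.6 ± 5.39 against 35.7 ± 9.47 (0.89 ± 0.22, adjusted p = 0.0127), and the exchanger cofactor TESC was lower, 1.59 ± 1.44 against 15.5 ± 4.64 (adjusted p = 0.00300). TESC entered the SiHa test only through its mean at pH 7.4, since its mean at pH 6.5 lay under 10 and under the detection limit. SLC4A8, a sodium-driven exchanger of chloride and bicarbonate, was lower in SiHa at pH 6.5, 54.0 ± 24.0 against 103 ± 30.1 (-0.99 ± 0.34, adjusted p = 0.0467), and missed the threshold without pH 6.5 replicate 1, 4 or 5 or any 1 of the 3 pH 7.4 libraries, at adjusted p of 0.0649 to 0.175.

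Of the anion exchangers of the SLC26 family, SLC26A7 was lower in HCT116 at pH 6.5, 52.5 ± 38.7 against 128 ± 30.3 (log2 -1.46 ± 0.38, adjusted p = 0.0192), and SLC26A1 was lower in SiHa, 13.7 ± 7.11 against 52.1 ± 14.1 (-1.94 ± 0.37, adjusted p = 0.00334). The SLC26A7 change was -0.65 (adjusted p = 0.270) without HCT116 pH 6.5 replicate 1. Of the acid-sensitive potassium channels, KCNK1 was lower at pH 6.5 in FaDu, 1815 ± 348 against 4439 (-1.31 ± 0.24, adjusted p = 0.0266), and in SiHa, 608 ± 176 against 1271 ± 202 (-1.09 ± 0.20, adjusted p = 0.00255), and KCNK5 was lower in HCT116, 480 ± 15.8 against 982 ± 230 (adjusted p = 0.00495). The proton receptor GPR4 was at 0 in all 6 compared FaDu libraries and at most 11.7 elsewhere.

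Some of these calls were lost when single libraries were left out. Those of SLC9A2 in HCT116 and of SLC9A9, AHCYL2, KCNK1, SLC26A1 and TESC in SiHa held without any single library. All 5 FaDu calls were lost without pH 6.5 replicate 3 or 4, those of SLC9A5 and KCNK1 also without replicate 5, and those of SLC9A2 and AHCYL2 also without replicate 2 or 5, with the highest adjusted p between 0.0644 for AHCYL1 and 0.123 for AHCYL2. In HCT116 the calls of SLC9A8 and SLC9A9 were lost without pH 6.5 replicate 1 (adjusted p = 0.146 and 0.177) or 3 (0.127 and 0.0815), that of SLC9A8 also without pH 7.4 replicate 5 or 7 (0.0733 and 0.0798), and that of KCNK5 without pH 6.5 replicate 1 (0.0560). In SiHa those of SLC9A5 and PDZK1 were lost without pH 7.4 replicate 5 (0.0622 and 0.0659) and that of AHCYL1 without pH 7.4 replicate 1 (0.0510). With the libraries as labelled, the changes of KCNK5 in HCT116 and of SLC4A8 in SiHa were not called, at log2 -0.38 and -0.67 (adjusted p = 0.332 and 0.175), in ranges over all alternatives of 8.14e-05 to 0.332 and 0.00346 to 0.196.

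**Figure D4:**
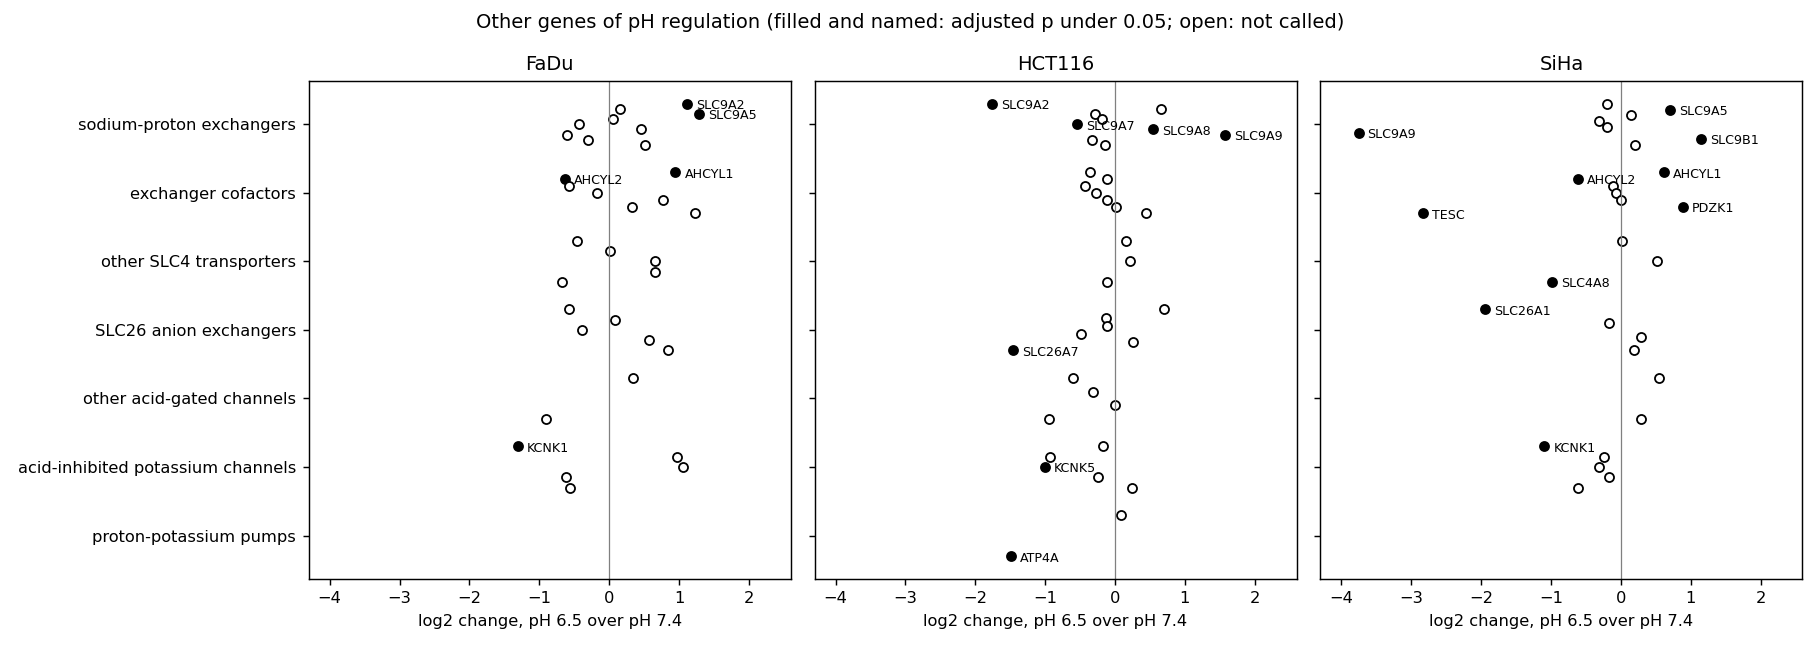
Log2 change at pH 6.5 over pH 7.4 (horizontal axes) of further genes of pH regulation, by list and line, in the compared libraries. Each gene shown is 1 point, filled and named where it passed the adjusted p of 0.05. SLC9A9 lies at -3.76 in SiHa and at 1.57 in HCT116, and the median of the tested genes is 0.09 in FaDu, -0.16 in HCT116 and -0.11 in SiHa.

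The genes most like the members in level over the 21 libraries are given as a description, since these libraries share 3 lines and 2 pH values and 13894 genes were compared. SLC4A2 ran closest to MYH15 (Pearson r = 0.942), VPS37B (0.940) and OLA1 (0.937). SLC4A7 ran closest to SDE2 (0.845), ZNF232 (0.835) and PANK4 (0.772). SLC4A11 ran closest to RNF208 (0.963), LZTS2 (0.956) and KLHL29 (0.951). ASIC1 ran closest to IP6K2 (0.985), FUCA1 (0.970) and APLP1 (0.970), and GPR132 to PRRT3 (0.838), NINJ1 (0.834) and HOXA5 (0.828). SLC4A4 and HVCN1 were too low for such a comparison.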

How the data were processed

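The authors deposited 1 table of normalised counts for 30 bulk RNA libraries and 38122 Ensembl genes, treated here as signal values. Per the submitters' processing notes, bcl2fastq 2.20, FastQC, Trimmomatic 0.38, STAR 2.6.1d and DESeq2 1.22.2 were used with GRCh37. Not given in the sources used here are the program that counted reads, whether it used strand, and its gene annotation. In each library 100% of the values were whole multiples, within 0.01, of what 1 read is worth, so reads were recovered, and the size factors equalled the median of ratios. Symbols were matched for 35466 IDs and not for 2656. No column belonged to another series.

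The members and gene lists were chosen with earlier results of these data known, as was the choice of the 9 libraries kept apart. Each line was tested at pH 6.5 against pH 7.4 with limma 3.58.1 (R 4.3.3, with an intensity trend, 2-sided) on log2 of the normalised count plus 1, over genes whose mean reached 10 in 1 of both groups, and lines were compared in 1 fit over the 21 kept libraries. Fold changes on this scale understate the change of low genes. Called means a Benjamini-Hochberg adjusted p under 0.05 over all genes tested. Alternatives were all libraries as labelled, other pseudocounts, filters and scalings, edgeR 4.0.16 and DESeq2 1.42.0 on the recovered reads, 1 fit over all lines, a replicate block and leaving out each library. Scripts were tested on simulated data.

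Named were the members, in each line up to 6 called list genes of largest change with a mean of at least 50, and the 3 genes most correlated with each member of mean 10 or more. Some list genes counted in the totals are not reported here by name. AHCYL1, AHCYL2 and TESC in SiHa and GPR4 fall outside this rule and were picked after their values were seen. The largest correlation between 2 libraries was 0.990, and each library was counted on its own.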

Additional observations from a re-analysis of the deposited data

Results flagged for a closer look

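Of 21 groups of 4 or more libraries examined for a value far from the others, 2 held one. Chance gives about 1 in 20 for normally distributed values, a rate that does not hold for counts near 0. SLC4A11 measured 353 normalised counts in SiHa pH 6.5 replicate 7, with 215 to 239 in the other 4 libraries of that group. SLC4A4 measured 1.35 in SiHa pH 6.5 replicate 1 and 0 in the other 4, and all 5 lie at or under the limit of 3 reads. With the other 4 at 0, any value above 0 would have been flagged.

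The pH effect of GPR132 and ASIC1 differed between lines by the test of that difference in limma. On the log2 scale the GPR132 effect was higher by 4.20 in FaDu than in SiHa and by 4.17 in HCT116 than in SiHa. The ASIC1 effect was higher by 1.09 in FaDu than in SiHa and by 0.92 in HCT116 than in SiHa. The compared FaDu library and 4 of the 5 HCT116 libraries at pH 7.4 held 3 or fewer reads of GPR132, and the ASIC1 differences were lost when single libraries were left out. The part of the low reads in these differences was not tested.

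Libraries kept apart stood above all compared pH 7.4 libraries of their line for 4 of the genes. In FaDu the 4 kept apart held 607 to 792 normalised counts of ASIC1, against 249 in the compared pH 7.4 library. They held 662 to 1188 of SLC4A11, against 404, and 6002 to 7809 of SLC4A2, against 5950. In HCT116 the 3 kept apart, labelled pH 6.5, held 6.34 to 13.8 of GPR132, against at most 5.03 at pH 7.4. The compared HCT116 libraries at pH 6.5 held 6.87 and 10.3, inside that range.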

How the results depend on the processing

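Over the alternatives other than leaving out single libraries, 402 summary counts stayed within 1.5 times and 51 did not, and of the values of single genes 607 kept their direction and side of the threshold, 44 lost the call, 8 gained it and 11 reversed. The cause of these changes was not tested, unless named.

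With all libraries as labelled, FaDu had 4727 genes higher and 4388 lower at pH 6.5 (24% and 22.3% of 19690 tested), beside 812 and 599 in the compared libraries. Of the 7 genes 6 were tested, 1 was higher and 2 lower, and of the list genes 7 were higher and 15 lower. SLC4A11 turned to -0.45, ASIC1 to -0.78 and SLC9A5 to -0.28 in FaDu. In HCT116 1 of the 4 members tested was lower, beside 9.62% of all tested genes. There 1 list gene was higher, beside 8.56% of all, and SLC9A9 turned to -0.49. Between lines 21981 genes were tested, 6 of the 7 members among them. The pH effect was higher for 3175 genes and lower for 3109 in FaDu than in SiHa, with 1 of the 7 called and ASIC1 at -0.070. It was higher for 2545 genes and lower for 2660 in HCT116 than in FaDu, with 1 of the 7 called. For levels at pH 6.5, 3 of the 7 were called between FaDu and SiHa, where 7187 genes were higher and 6175 lower. Between HCT116 and SiHa 1 of the 7 was called, where 4087 genes were higher and 3857 lower. SLC4A2 turned to -0.19 and SLC4A11 to -0.073 for HCT116 minus FaDu. For levels at pH 7.4, 2741 genes were higher and 3812 lower in HCT116 than in FaDu, with 1 of the 7 called.

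With no filter on low values, FaDu had 479 genes higher and 755 lower of 35413 tested, and 1 list gene lower. HCT116 had 0 list genes higher in limma, beside 1435 of 35333 genes. The pH effect of 1 of the 7 differed between FaDu and SiHa, where 1448 genes were higher and 1422 lower of 38060. With a mean of at least 50, 3 of the 7 differed in level between FaDu and SiHa at pH 6.5, since fewer were tested. There 6666 genes were higher and 5863 lower of 16655. In edgeR, 4 list genes were higher in HCT116, beside 2068 of 18885 genes. The pH effect of 1 of the 7 differed in edgeR between FaDu and SiHa, where 1499 genes were higher and 1410 lower of 22127. In DESeq2, FaDu had 1399 genes higher and 1286 lower of 19170, with 5 list genes higher. HCT116 had 4 list genes higher in DESeq2, beside 2172 of 18885 genes. In 1 fit over the 3 lines, FaDu had 1225 genes higher and 1341 lower of 22127, with 5 list genes lower. In HCT116 1 of the 7 was higher there, GPR132, and 1 lower, SLC4A2, beside 2207 genes higher and 2371 lower of 22127.

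Replicate numbers were not taken to pair the libraries, since the labels do not tie them. Same-numbered libraries correlated, as deviations from their group means, at -0.119 to 0.454 over the lines and settings, which does not settle whether they are paired. In the compared SiHa libraries, pH 6.5 replicate 1 correlated at 0.446 with its own number and at -0.394 and -0.226 with the others. Replicate 5 there correlated at 0.139 with its own number and at 0.174 with number 4. As labelled, all 5 FaDu libraries at pH 6.5 correlated best with their own number at pH 7.4 (0.0513 to 0.113), a hint from the data and not the design, while FaDu pH 7.4 replicate 2 correlated best with pH 6.5 replicate 4. In HCT116 as labelled and in SiHa not every library correlated best with its own number. In SiHa the block moved no count by over 1.5 times. With the replicate block, HCT116 had 1145 genes higher and 1782 lower of 18885 tested, and 0 list genes higher. Of the 7 genes SLC4A7 was called higher, at 1.37 (adjusted p = 6.53e-11, in a range of 6.53e-11 to 0.685). SLC4A2 was called lower, at -0.56 (adjusted p = 0.0334, in a range of 0.0266 to 0.515). Only replicate numbers 1 and 3 occur at both pH values there, so these changes rest on those 2 numbers. Little is then left to measure the spread of a single gene, so the p-values lean on the spread over all genes. With the replicate block on the libraries as labelled, FaDu had 4502 genes higher and 4349 lower of 19690 tested. Of the 7 genes 1 was higher and 2 lower in FaDu, and of the list genes 6 were higher and 16 lower. SLC4A11 stood at -0.45, ASIC1 at -0.78 and SLC9A5 at -0.28. With this block HCT116 had 593 genes higher and 814 lower of 19557, and 1 of the 7 lower. It had 0 list genes higher and 0 lower, and SLC9A9 at -0.49. In SiHa 3920 genes were higher and 4219 lower of 18834. There SLC4A11 was called lower (-0.48, adjusted p = 0.0135, in a range over all alternatives of 0.0135 to 0.733). No paired analysis was possible in the compared FaDu libraries because only 1 number is shared.

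Leaving out 1 library at a time, the genes higher ran from 38 to 3430 and lower from 28 to 3609 in FaDu, from 850 to 2427 and from 1348 to 2723 in HCT116, and from 1736 to 3088 and from 1815 to 3385 in SiHa. Of the 7 genes, 0 to 1 were higher and 0 to 1 lower in FaDu, and 0 to 1 higher and 1 to 3 lower in SiHa. List genes higher were 0 to 9 and lower 0 to 7 in FaDu, 0 to 3 and 3 to 7 in HCT116, and 2 to 5 higher in SiHa. For the pH effect, 1264 to 2439 genes were lower in FaDu than in SiHa with 1 to 2 of the 7 called, 1118 to 2485 were higher in HCT116 than in FaDu, and 1795 to 3174 were higher in HCT116 than in SiHa with 1 to 2 of the 7 called. For levels at pH 6.5, 2 to 4 of the 7 differed between HCT116 and FaDu, where 5649 to 6932 genes were higher and 6177 to 7376 lower. SLC4A7 in FaDu ran from -0.17 to 0.0074 and ASIC1 in HCT116 from -0.11 to 0.60. Leaving out the FaDu pH 7.4 library gives no test.

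Limits are the single FaDu library at pH 7.4 and the 2 HCT116 libraries at pH 6.5. For SLC4A4, HVCN1 and GPR132 a change of a few reads decides the value.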
